A study of Arabidopsis thaliana with 24 samples.

Results

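Enzyme genes at the lower end of glycolysis were followed, namely PGM (AT1G78050), AT3G49160 and PPDK (AT4G15530). They are 3 of the 12432 named genes measured above background. They were taken by name, as every probe set that the probe annotation assigns to each of them, and each had 1 probe set. Transcript levels come from ATH1 microarrays hybridized with shoot RNA of Arabidopsis thaliana plants, 3 weeks old and kept in liquid medium, of 2 genotypes named WT and sdg8-5. WT is the line that was not mutagenized, and it carries the pASN1-HPT2 transgene used in the screen that gave the mutant. The mutant sdg8-5, formerly cli186, arose from it by fast neutrons, so both genotypes share the transgene background. It lacks SDG8, a histone H3 lysine 36 methyltransferase, and the deletion extends into the neighbouring gene AT1G77310, so a difference between the genotypes cannot be told apart from a loss of that second gene. All plants spent 24 h in darkness without sucrose and then 2 h under 1 of 4 treatments, which are neither sucrose nor light (-C-L), 1% sucrose in darkness (+C-L), light of 70 µE without sucrose (-C+L) and both (+C+L). Each of the 8 conditions had 3 arrays, from 3 sets of biological replicates. The genotype labels were not checked by the level of SDG8, since the probe annotation lists none for it.

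Glycolysis turns hexose phosphates into pyruvate, and its last steps pass through 3-phosphoglycerate, 2-phosphoglycerate and phosphoenolpyruvate. Phosphoglycerate mutases interconvert the phosphoglycerates, and PGM is annotated as a phosphoglycerate/bisphosphoglycerate mutase, which is distinct from the phosphoglucomutase that shares its abbreviation. Pyruvate kinases make pyruvate and ATP from phosphoenolpyruvate, and AT3G49160 belongs to the pyruvate kinase family. Pyruvate orthophosphate dikinase, encoded by PPDK, catalyses the reversible step between pyruvate and phosphoenolpyruvate and is best known from C4 plants such as maize. In shoots, glycolysis is fed by sucrose and by carbon fixed in light. The comparisons ask how the transcripts of these 3 genes depend on loss of SDG8, on sucrose and on light.

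On the TAIR10.1 assembly, PGM lies on chromosome 1 from 29347581 to 29349755, AT3G49160 on chromosome 3 from 18221794 to 18224905, and PPDK on chromosome 4 from 8864615 to 8870979. The study mapped the deletion of SDG8 to the same region of chromosome 1 as PGM. For PGM, a change linked to the deletion therefore cannot be told apart from loss of SDG8. The values are MAS5 signal intensities on a linear scale, scaled by the authors so that the trimmed mean is 500 on every array. An intensity of 40 was taken as the floor of detection. PPDK (2060 to 6528) and AT3G49160 (53.04 to 536.4) were above it on 24 of 24 arrays, and PGM (29.63 to 1150) on 23. Levels of different probe sets are not compared with each other.

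The scaling gave every array the same trimmed mean, and the median intensity was 180.5 to 223.3. It was lower on the -C-L arrays (180.5 to 199.3) than on all others (201.1 to 223.3). Results after centring on the medians are given below. The arrays also differed in their control probe sets. The 25S rRNA control had a median of 891.8 (371 to 8823) in WT and 6296 (498.1 to 15340) in sdg8-5, of 6856 in darkness and 503.3 in light, and of 5052 without and 1236 with sucrose. The ratio of the 3' to the 5' actin probe set, a sign of RNA quality, had a median of 10.13 (7.876 to 25.71) in WT and 15.6 (8.322 to 34.05) in sdg8-5, and that of GAPDH 1.653 and 1.603. By their bioC spike-in controls, 12 arrays (8 of WT and 4 of sdg8-5) had a lower signal. The other 12 (4 of WT and 8 of sdg8-5) had a higher one. The lower group was every array of replicate 1 and the WT arrays of replicate 2. The higher group was the sdg8-5 arrays of replicate 2 and every array of replicate 3. Within replicate 2, genotype and bioC group thus cannot be told apart. The actin ratio was 7.876 to 11.11 in the lower group and 12.01 to 34.05 in the higher. Its medians by genotype therefore also carry this uneven split. The part of the 25S rRNA and bioC signals in the results was not tested beyond the values given with them, and that of the actin ratio was not tested. The 4 measured shoot markers (RCA, LHCB4.2, PSAN and SBPASE) were at 828 or more on every array, and their summed intensity was 12962 to 26667 in darkness and 24072 to 45609 in light. The sum was also lower in sdg8-5 (median 23423, range 12962 to 34729) than in WT (27759, 18397 to 45609) and lower with sucrose (22509, 12962 to 38783) than without (28314, 21214 to 45609), with overlapping ranges. In sdg8-5, SBPASE (-0.54), LHCB4.2 (-0.37) and PSAN (-0.38) were lower at an FDR under 0.05 from limma, and RCA (-0.14) did not pass. The part of these markers in the genotype, sucrose and light effects below was not tested. Of the 3 measured root markers, EXPA7 and PRX44 were at 157.1 or less, but the root beta-glucosidase PYK10 was at 3406 to 8568 on these shoot arrays. The summed root markers had a median of 6074 in WT and 6259 in sdg8-5, and 6259 with and 6074 without sucrose. In light it was 6175 and in darkness 6085, and the ranges overlapped in each case. This sum is mostly PYK10 (mean 5990, against 62.22 for EXPA7 and 15.81 for PRX44). PRX44, at 47.27 or less and so near the floor, was higher in light (1.30, FDR = 0.00543 from limma). PYK10 and EXPA7 did not pass for light. The part of PRX44 in the light effects was not tested. The 2 measured flower markers, AMS and AT5G07230, were at 59.96 or less. In such bulk samples, fewer cells of a type and less RNA per cell cannot be told apart.

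**Figure D1:**
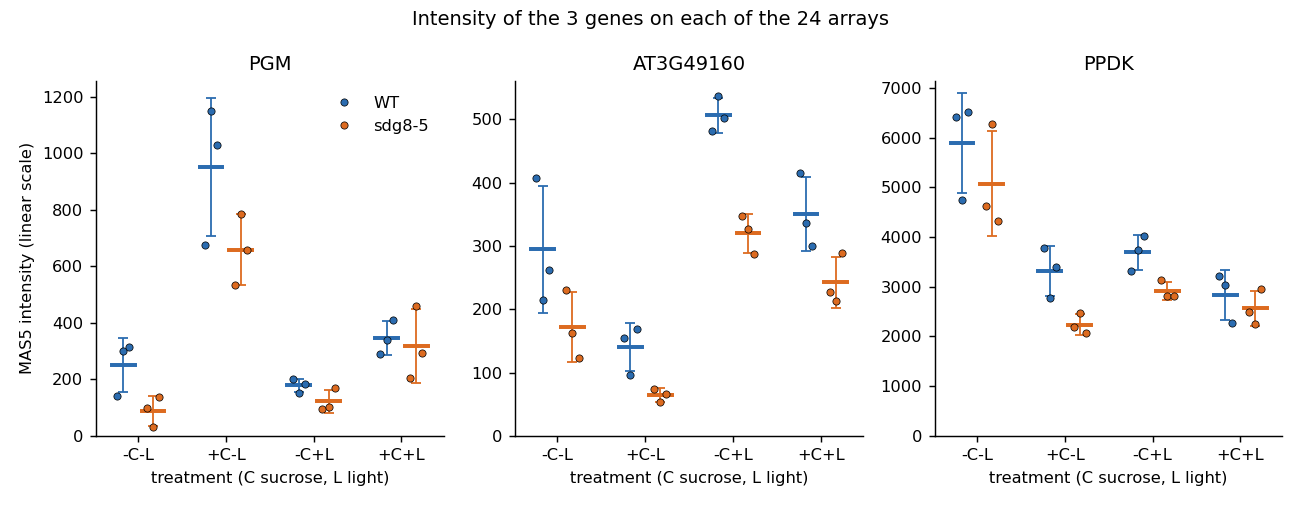
MAS5 intensity (vertical axis, linear scale from 0) of PGM, AT3G49160 and PPDK under the 4 treatments in WT (blue) and sdg8-5 (orange). Points are single arrays, horizontal bars the mean of 3 arrays and error bars 1 SD. PGM is highest with sucrose in darkness, AT3G49160 is highest in WT with light alone, and PPDK is highest without sucrose or light.

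PGM was the gene that sucrose raised. In darkness without sucrose its intensity was 141.4, 298.3 and 312.6 on the 3 WT arrays, and with sucrose it was 676.4, 1150 and 1027. In sdg8-5 the same treatments gave 99.59, 29.63 and 135.7 without sucrose and 533, 785.2 and 657.9 with it. In both genotypes every array with sucrose lay above every array without it, and 21.38% (WT) and 26.35% (sdg8-5) of named genes were separated in either direction in these comparisons. In light, the WT values were 200.1, 152.8 and 181.7 without sucrose and 288.3, 340 and 408.8 with sucrose. The sdg8-5 values in light were 95.48, 103.5 and 169.8 without and 203.2, 458.1 and 291.2 with sucrose, again without overlap in either genotype, as held for 17.74% (WT) and 16.92% (sdg8-5) of named genes. Averaged over genotype and light, the mean intensity was 160.1 ± 81.8 (SD, n = 12) without and 568.2 ± 300.7 (SD, n = 12) with sucrose, and these SDs include the differences between treatments.

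The fitted sucrose effect on PGM was 1.85 on the log2 scale (standard error 0.23, FDR = 9.82e-06 from limma), or 3.61-fold. Among all named genes, 12.3% were higher and 8.19% lower with sucrose at an FDR under 0.05 (1533 and 1018 genes, or 1030 and 1407 when arrays were centred on their medians). The effect was 1.97 in WT in darkness (FDR = 0.0199 from limma) and 3.14 in sdg8-5 in darkness (FDR = 0.000138), comparisons in which 4.1% and 12.6% of named genes passed in either direction. In light it was 0.95 in WT (95% interval 0.00 to 1.90, FDR = 0.42) and 1.34 in sdg8-5 (interval 0.39 to 2.29, FDR = 0.205), where 1.2% and 1.39% of named genes passed. The value in sdg8-5 darkness rests in part on replicate 2 of -C-L, at 29.63 and so below the floor of 40, and without that array it was 2.49 and still passed. The sucrose effect on PGM kept its direction and its call under all 40 alternatives tried, including the 12 arrays of lower bioC signal alone (1.57, FDR = 0.0148), those of higher signal alone (2.14, FDR = 0.0296) and a fit with the 25S rRNA signal as covariate (1.66, FDR = 0.0011). The call in WT darkness was lost without WT +C-L replicate 2 (1.82, FDR = 0.0708), WT +C-L replicate 3 (1.90, FDR = 0.0616) or WT -C-L replicate 1 (1.60, FDR = 0.113), and with the 25S rRNA covariate (1.69, FDR = 0.142). It was lost as well without any of the 3 whole replicate sets, as were the sucrose calls of AT3G49160 and PPDK in WT darkness. The estimates were then 1.83 to 2.10 for PGM, -1.275 to -0.892 for AT3G49160 and -0.86 to -0.77 for PPDK. With fewer arrays, only 13 to 32 named genes passed in that comparison, against 510 with all arrays. Counts for other comparisons between single conditions are given at the end.

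Averaged over treatments, PGM was lower in sdg8-5, at 296.9 ± 250.4 against 431.4 ± 339.7 in WT (SD, n = 12 each), a log2 difference of -0.74 (standard error 0.23, FDR = 0.0272 from limma). At this threshold 10.1% of named genes were lower and 8.49% higher in sdg8-5. The difference was negative in all 4 treatments but passed only without sucrose or light (-1.68, FDR = 0.0421), where 4.17% of named genes passed in either direction and where the groups did not overlap, as held for 18.95% of named genes. In the other treatments it was -0.51 (+C-L), -0.58 (-C+L) and -0.19 (+C+L), and the groups overlapped. The sdg8-5 array at 29.63, replicate 2 of -C-L, is the only one of the 24 below 40, and without it the difference in that treatment was -1.02 (FDR = 0.199). That call was also lost without WT -C-L replicate 2 (-1.51, FDR = 0.15) or replicate 3 (-1.48, FDR = 0.141), without any whole replicate set (-2.27 to -0.85), with the 25S rRNA covariate (-1.43, FDR = 0.164), and by a least squares fit without limma's moderation of the variances, on log2 values (-1.68, FDR = 0.0544) and on linear values (-162.5 intensity units, FDR = 0.474). Leaving out an array of another condition left the difference at -1.68 and moved the FDR to between 0.0504 and 0.0532 for 9 arrays, namely WT +C+L replicate 2, WT +C-L replicate 3, the 3 WT -C+L arrays, sdg8-5 +C+L replicate 3, sdg8-5 +C-L replicates 2 and 3, and sdg8-5 -C+L replicate 2.

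The average genotype difference of PGM did not pass within the 12 arrays of lower bioC signal (-0.82, FDR = 0.186) or of higher signal (-0.86, FDR = 0.393), and it was -0.43 (standard error 0.36, FDR = 0.558) with the 25S rRNA covariate. It was also lost without sdg8-5 +C+L replicate 1 (-0.67, FDR = 0.0505). The light effect on PGM was -0.57 (standard error 0.23, FDR = 0.0566 from limma) and did not pass, in a comparison where 17.3% of named genes were higher and 16.4% lower in light (2156 and 2033 genes, or 1630 and 2752 after median centring). In WT with sucrose, light lowered PGM from 951 ± 245.6 to 345.7 ± 60.5 (SD, n = 3), a difference of -1.44 (FDR = 0.0401 from limma), a comparison in which 12.6% of named genes passed. The corresponding values were -1.12 in sdg8-5 with sucrose (FDR = 0.154), -0.42 in WT without sucrose (FDR = 0.607) and 0.69 in sdg8-5 without sucrose (FDR = 0.337). The call in WT with sucrose was lost with the 25S rRNA covariate (-1.91, FDR = 0.0896), without moderation (-1.44, FDR = 0.0511) and without any of 5 arrays, the 3 of WT +C+L (-1.57 to -1.31) and replicates 2 (-1.28) and 3 (-1.37) of WT +C-L, or without any whole replicate set. Without sdg8-5 -C-L replicate 2, the average light effect passed (-0.73, FDR = 0.0027) and so did that in sdg8-5 with sucrose (-1.12, FDR = 0.0485). The latter also passed on linear values without moderation (-341.2 intensity units, FDR = 0.036).

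AT3G49160 was lower with sucrose, higher in light and lower in sdg8-5. On the WT arrays its intensity was 406.6, 214 and 262.5 without sucrose or light, 154, 96.53 and 169.1 with sucrose in darkness, 481.9, 536.4 and 501.8 with light alone, and 415.6, 335.6 and 300.2 with both. On the sdg8-5 arrays the same treatments gave 230.9, 162 and 122.4, then 73.78, 53.04 and 66.48, then 346.7, 326.6 and 286.6, and finally 227, 212.3 and 288.2. Every array in light lay above every array in darkness of the same genotype and sucrose level, a separation in either direction that 32.7% (WT) and 31.39% (sdg8-5) of named genes showed without sucrose and 28.39% and 23.06% with it. Its lowest level was in sdg8-5 with sucrose in darkness, at 64.43 ± 10.5 (SD, n = 3), and its highest in WT with light alone, at 506.7 ± 27.6 (SD, n = 3).

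Light raised AT3G49160 by 1.26 on the log2 scale (standard error 0.13, FDR = 3.13e-07 from limma), or 2.40-fold, from 167.6 ± 100.8 in darkness to 354.9 ± 106.3 in light (SD, n = 12 each). The effect passed in all 4 comparisons. It was 0.84 in WT without sucrose (FDR = 0.0281), 0.94 in sdg8-5 without sucrose (FDR = 0.015), 1.35 in WT with sucrose (FDR = 0.00138) and 1.91 in sdg8-5 with sucrose (FDR = 6.76e-05). In the same order, 18.4%, 17.3%, 12.6% and 7.6% of all named genes passed. The average effect passed under all 40 alternatives, with 1.17 and 1.35 within the arrays of lower and higher bioC signal and 1.31 (FDR = 0.0287) with the 25S rRNA covariate. The effects without sucrose did not pass after centring each array on its median (0.69 in WT and 0.76 in sdg8-5, FDR = 0.0775 and 0.0515), after quantile normalization (0.74 in both, FDR = 0.0644 and 0.0676) or with the 25S rRNA covariate (0.89 and 0.98, FDR = 0.378 and 0.162). They were also lost without single arrays, in WT without any of the 3 -C+L arrays (0.79 to 0.87), -C-L replicate 2 (0.63) or -C-L replicate 3 (0.78), and in sdg8-5 without -C+L replicate 1 (0.88) or -C-L replicate 3 (0.72). Without the whole of replicate 2 they were lost too, as was the effect in WT with sucrose (1.13, FDR = 0.085), and without replicate 3 both effects without sucrose were lost.

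Sucrose lowered AT3G49160 by a log2 value of -0.85 (standard error 0.13, FDR = 9.94e-05 from limma), from 323.2 ± 135.4 to 199.3 ± 117.8 (SD, n = 12 each). The change passed in darkness, at -1.06 in WT (FDR = 0.0268) and -1.38 in sdg8-5 (FDR = 0.00137). In light it was -0.54 in WT (interval -1.09 to 0.00, FDR = 0.42) and -0.41 in sdg8-5 (interval -0.95 to 0.14, FDR = 0.649), and neither passed. The average passed under all 40 alternatives, with -0.95 and -0.75 within the arrays of lower and higher bioC signal. The change in WT darkness was lost with the 25S rRNA covariate (-1.04, FDR = 0.125) and without WT +C-L replicate 1 (-1.15, FDR = 0.0519), WT +C-L replicate 2 (-0.81, FDR = 0.117) or WT -C-L replicate 1 (-0.80, FDR = 0.146). In sdg8-5 darkness it was lost without the whole of replicate 2 (-1.26, FDR = 0.078) and on linear values without moderation (-107.3 intensity units, FDR = 0.114).

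The level of AT3G49160 in sdg8-5 was 199.7 ± 103.4 against 322.9 ± 147.1 in WT (SD, n = 12 each), a log2 difference of -0.77 (standard error 0.13, FDR = 0.000355 from limma). The study placed AT3G49160 and PPDK on a list of energy metabolism genes that it chose partly because their level on these arrays was lower in sdg8-5, so their direction is not independent evidence. For AT3G49160 the difference was -0.77 (-C-L), -1.09 (+C-L), -0.67 (-C+L) and -0.53 (+C+L), and the groups did not overlap in the last 3 of these, a separation that 21.21%, 20.04% and 19.59% of named genes showed. It passed only with sucrose in darkness (FDR = 0.0193), where 4.49% of named genes passed, and not under the other treatments (FDR = 0.11, 0.243 and 0.36), of which the -C+L and +C+L comparisons called 2.04% and 2.18% of named genes. The average difference passed within the arrays of higher bioC signal (-0.85, FDR = 0.0486) and with the 25S rRNA covariate (-0.79, FDR = 0.0377), but not within the arrays of lower signal (-0.59, FDR = 0.23). The call with sucrose in darkness was lost with the 25S rRNA covariate (-1.12, FDR = 0.0934), after quantile normalization (-0.91, FDR = 0.0639) and on linear values without moderation (-75.44 intensity units, FDR = 0.371), without WT +C-L replicate 1 or 3 or sdg8-5 +C-L replicate 2 or 3 (-1.12 to -0.93, FDR = 0.0522 to 0.101), and without any whole replicate set. On linear values the difference with light alone passed instead (-186.7 intensity units, FDR = 0.0219). Without sdg8-5 -C-L replicate 1, the difference without sucrose or light passed (-1.01, FDR = 0.043).

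PPDK was highest in shoots that received neither sucrose nor light. Its intensity there was 6421, 4740 and 6528 on the WT arrays and 4634, 6276 and 4328 on the sdg8-5 arrays. With sucrose in darkness the values were 3772, 2774 and 3402 in WT and 2181, 2467 and 2060 in sdg8-5. With light alone they were 3321, 3734 and 4017 in WT and 3134, 2816 and 2809 in sdg8-5. With both they were 3217, 3032 and 2271 in WT and 2499, 2253 and 2953 in sdg8-5. In each genotype, every array without sucrose or light lay above every array of the other 3 treatments. Against sucrose in darkness, 21.38% (WT) and 26.35% (sdg8-5) of named genes were separated in either direction. Against light alone, 32.7% and 31.39% were. The share of genes separated from all 3 treatments was not computed.

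Sucrose lowered PPDK by a log2 value of -0.64 (standard error 0.09, FDR = 4.03e-05 from limma), from 4396 ± 1372 to 2740 ± 541.5 (SD, n = 12 each). In darkness the change was -0.83 in WT (FDR = 0.0146) and -1.17 in sdg8-5 (FDR = 0.00025). In light it was -0.39 in WT (interval -0.77 to -0.01, FDR = 0.399) and -0.19 in sdg8-5 (interval -0.57 to 0.19, FDR = 0.811), and neither passed. The average change did not pass within the 12 arrays of lower bioC signal (-0.55, FDR = 0.0699), but it passed within those of higher signal (-0.74, FDR = 0.0445) and under the other 38 alternatives. The call in WT darkness was lost with the 25S rRNA covariate (-0.91, FDR = 0.0553) and without WT +C-L replicate 2 (-0.70), WT -C-L replicate 1 (-0.76) or WT -C-L replicate 3 (-0.75).

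Light lowered PPDK by a log2 value of -0.37 (standard error 0.09, FDR = 0.00286 from limma), from 4132 ± 1641 to 3005 ± 535.5 (SD, n = 12 each). The change passed without sucrose, at -0.67 in WT (FDR = 0.0126) and -0.78 in sdg8-5 (FDR = 0.00461). With sucrose it was -0.23 in WT (interval -0.61 to 0.15, FDR = 0.478) and 0.19 in sdg8-5 (interval -0.18 to 0.57, FDR = 0.642). The average change did not pass within the arrays of lower (-0.29, FDR = 0.221) or higher bioC signal (-0.45, FDR = 0.127). Nor did it pass with the 25S rRNA covariate (-0.55, FDR = 0.204), where its standard error was 0.24. The call in WT without sucrose was lost with that covariate (-0.88, FDR = 0.154) and without WT -C+L replicate 1 (-0.59), WT -C-L replicate 1 (-0.60) or WT -C-L replicate 3 (-0.58). Leaving out whole sets ended it without replicate 1 or 3, and ended the call in sdg8-5 without replicate 2 (-0.59, FDR = 0.118).

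PPDK was 3201 ± 1258 in sdg8-5 and 3936 ± 1339 in WT (SD, n = 12 each), a log2 difference of -0.31 (standard error 0.09, FDR = 0.019 from limma) or 1.24-fold. No single treatment passed. The difference was -0.22 (-C-L), -0.56 (+C-L, FDR = 0.0876), -0.34 (-C+L) and -0.14 (+C+L), and the groups did not overlap in the second and the third of these, as held for 21.21% and 20.04% of named genes. With trend and robust estimation the difference with sucrose in darkness passed (-0.56, FDR = 0.0422 from limma). The average did not pass within either bioC group (-0.33, FDR = 0.338 and -0.31, FDR = 0.44) or with the 25S rRNA covariate (-0.22, standard error 0.15, FDR = 0.434).

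**Figure D2:**
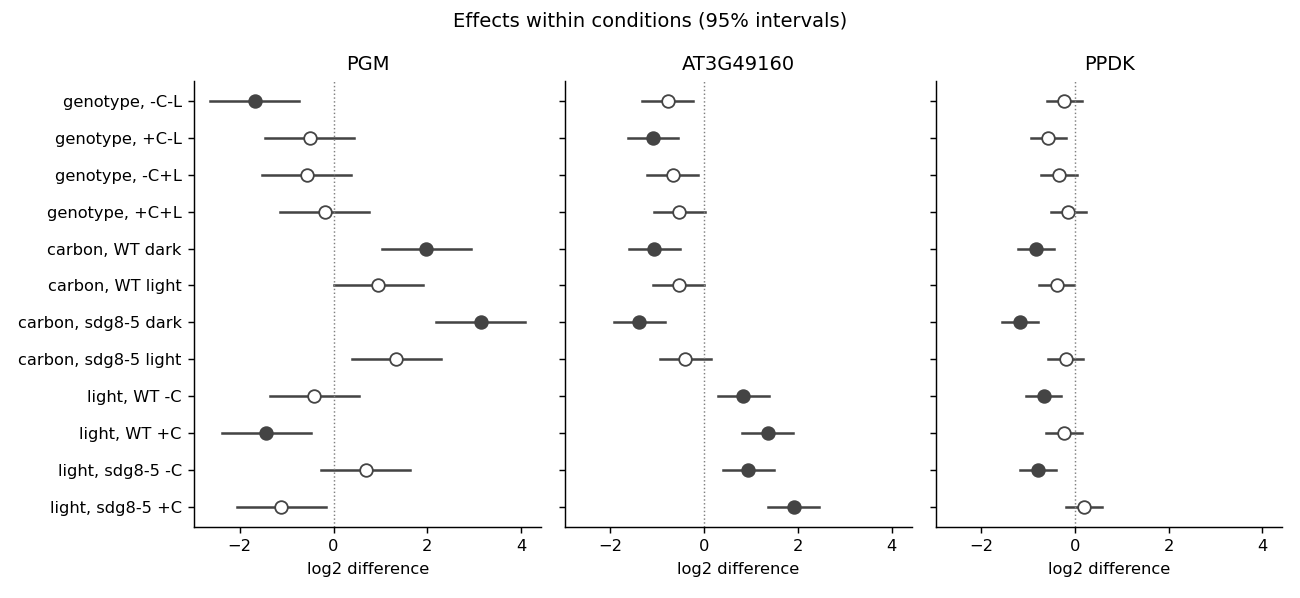
Log2 differences (horizontal axis, points) with 95% intervals (lines) for the 4 genotype, 4 sucrose (carbon) and 4 light comparisons between single conditions of 3 arrays each. Filled points passed an FDR of 0.05. The sucrose comparisons passed in darkness for all 3 genes and in light for none of them. Of all named genes, 4.1% (WT) and 12.6% (sdg8-5) passed in darkness, and 1.2% and 1.39% in light. The carbon by light interaction passed for none of the 3 genes. The light comparisons of AT3G49160 passed in all 4 cases, where 7.6% to 18.4% of named genes passed.

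Ordered by level, neighbouring conditions mostly overlapped. The order comes from these same values, so neighbours are the closest conditions and overlap is favoured in advance. The share of overlapping neighbours over all named genes was not computed, so the counts are a description only. PGM rose from sdg8-5 -C-L (88.3 ± 53.9) through sdg8-5 -C+L, WT -C+L, WT -C-L, sdg8-5 +C+L, WT +C+L and sdg8-5 +C-L to WT +C-L (951 ± 245.6), and its arrays overlapped in 6 of 7 neighbouring pairs. The exception was the step of 0.93 (log2) from WT +C+L to sdg8-5 +C-L (658.7 ± 126.1). For AT3G49160 the order was sdg8-5 +C-L, WT +C-L, sdg8-5 -C-L, sdg8-5 +C+L, WT -C-L, sdg8-5 -C+L, WT +C+L and WT -C+L, and 5 of 7 neighbouring pairs overlapped. The 2 pairs at the ends of this order were separate, by 1.09 and 0.54 (log2). For PPDK the order was sdg8-5 +C-L, sdg8-5 +C+L, WT +C+L, sdg8-5 -C+L, WT +C-L, WT -C+L, sdg8-5 -C-L and WT -C-L, and 6 of 7 pairs overlapped. Its separate pair was WT -C+L (3691 ± 350.1) and sdg8-5 -C-L (5079 ± 1048), with a step of 0.45 (log2).

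The sucrose effect was nearer to 0 in light than in darkness for each gene, but the carbon by light interaction did not pass the FDR of 0.05 for any of them. It was -1.41 for PGM (standard error 0.45, FDR = 0.237 from limma), 0.74 for AT3G49160 (standard error 0.26, FDR = 0.274) and 0.71 for PPDK (standard error 0.18, FDR = 0.109), and all 3 had an unadjusted p under 0.05. These are the differences between the sucrose effect in light and that in darkness, averaged over the genotypes. Of all named genes, 0.241% passed for this interaction. On linear intensities, a least squares fit of the same 3 factors without moderation called it for PGM (-454.3, FDR = 0.0208) and PPDK (2111, FDR = 0.0388), and limma with a variance trend and robust estimation called it for PPDK (0.71, FDR = 0.0387).

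No interaction with genotype passed for the 3 genes, nor had any an unadjusted p under 0.05. Genotype by light was 0.71 for PGM (interval -0.23 to 1.66), 0.33 for AT3G49160 (-0.21 to 0.88) and 0.15 for PPDK (-0.22 to 0.53), with FDR = 0.876 or more from limma. Of all named genes, 2 or 0.0161% passed this interaction at its FDR of 0.15. Genotype by carbon was 0.78 for PGM (interval -0.17 to 1.73), -0.09 for AT3G49160 (-0.63 to 0.45) and -0.07 for PPDK (-0.45 to 0.31). For this interaction limma called 0% of named genes at an FDR of 0.15, and likewise 0% for the three-way interaction at 0.05, although 589 and 541 genes had an unadjusted p under 0.05. The fit without moderation on log2 values also called 0 genes for both. The three-way terms were -0.78 for PGM (interval -2.68 to 1.12), 0.45 for AT3G49160 (-0.63 to 1.54) and 0.54 for PPDK (-0.22 to 1.29). The three-way intervals leave room for interactions as large as the main effects. The two-way intervals are narrower, and not all of them reach that far. That of genotype by carbon for AT3G49160 holds no value as large as any of its main effects. Each kind of interval was widest for PGM.

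**Figure D3:**
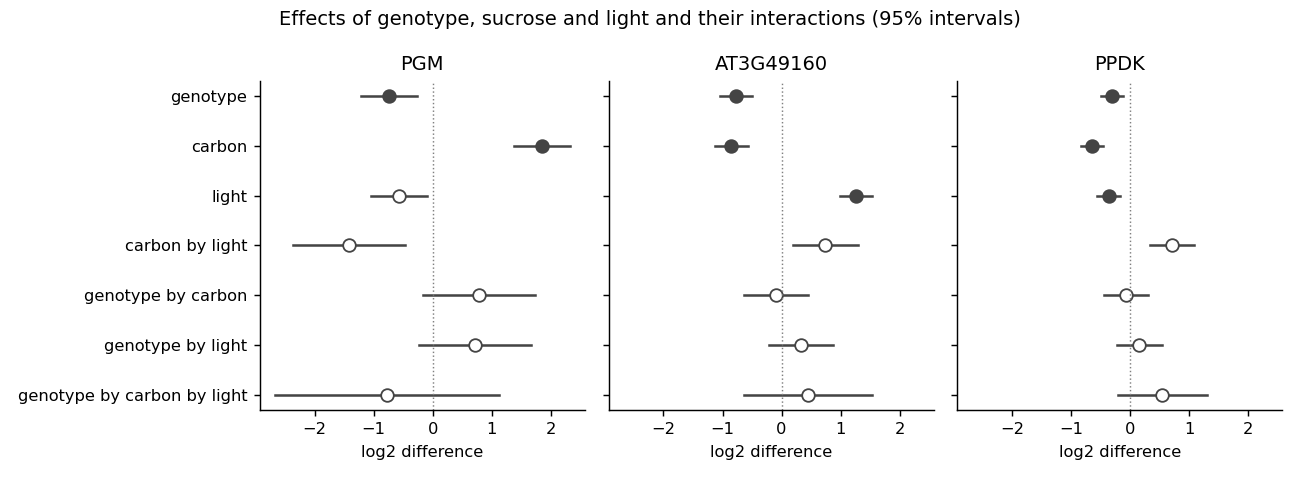
Log2 differences (horizontal axis, points) with 95% intervals (lines) for the genotype, sucrose (carbon) and light effects and for their interactions in PGM, AT3G49160 and PPDK. Filled points passed the FDR threshold of their comparison. All 3 genotype effects lie below 0, the carbon effect is above 0 for PGM only, and no interaction passed.

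Lists of the other genes of the pathway, drawn up from textbook knowledge, hold 103 genes, of which 28 have a probe set of their own in the annotation. The upper part of glycolysis (hexose list) has 5 measured genes of 29, the lower part (triose list) 13 of 30, and the genes that use or carry pyruvate (pyruvate list) 10 of 44. With sucrose, 13 of the 28 were higher and 2 lower at an FDR under 0.05, beside 12.3% higher and 8.19% lower over all named genes, and the median log2 change was 0.24 against 0.05. In darkness 5 were higher and 1 lower in WT, where 4.1% of all named genes passed in either direction, and 6 were higher in sdg8-5, where 12.6% passed. In light none of the 28 passed in either genotype by limma or by the fit without moderation. Of all named genes only 1.2% (WT) and 1.39% (sdg8-5) passed there by limma, so a count of 0 is near that share. Of the 28, 3 in WT and 2 in sdg8-5 had an unadjusted p under 0.05. In light against darkness 5 were higher and 4 lower, a share near that of all named genes (17.3% and 16.4%). Between the genotypes 4 were higher and 2 lower in sdg8-5, beside 8.49% and 10.1% of all named genes.

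Both other measured phosphoglycerate mutase genes of the lists were higher with sucrose, as PGM was and as 12.3% of all named genes were, by smaller values. AT4G09520, a member of the cofactor-independent family, had a mean intensity of 159.7 without and 216.4 with sucrose, which is 0.43 higher on the log2 scale (standard error 0.13, FDR = 0.0217 from limma). AT1G22170 had 131 and 176.8, a change of 0.46 (standard error 0.15, FDR = 0.0376). Within a single genotype and light level the sucrose change passed for neither gene (FDR = 0.16 or more for AT4G09520 and 0.389 or more for AT1G22170, from limma). Neither gene passed for genotype (-0.28 and -0.27) or for light (-0.22 and 0.03).

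Other members of the pyruvate kinase family were not called in the same directions as AT3G49160 for all 3 factors. AT5G08570 was higher with sucrose (0.68, FDR = 8.23e-06 from limma) and lower in light (-0.35, FDR = 0.00224), opposite to AT3G49160 in both. AT5G56350 was higher with sucrose (0.37, FDR = 0.00716), in light (0.32, FDR = 0.0117) and in sdg8-5 (0.49, FDR = 0.00112). AT5G63680 passed for none of the 3 factors (0.19 with sucrose, -0.24 in light and 0.19 in sdg8-5). AT3G04050, AT3G25960 and AT4G26390 had mean intensities of 59.22, 69.93 and 36.52, near the floor of 40, and passed for none of the factors.

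In the hexose list, 2 genes of the pyrophosphate-dependent phosphofructokinase, AT1G20950 and AT1G12000, were higher with sucrose (0.64 and 0.48) and in light (0.91 and 0.41). AT1G76550, of the same enzyme, was higher with sucrose (0.25, FDR = 0.0248 from limma) and in sdg8-5 (0.51, FDR = 0.000151), whereas AT1G20950 was lower in sdg8-5 (-0.43, FDR = 0.00475). F2KP, which makes and breaks down the regulator fructose 2,6-bisphosphate, was lower with sucrose (-0.40, FDR = 0.000553) and higher in sdg8-5 (0.26, FDR = 0.0152). The cytosolic glucose-6-phosphate isomerase gene AT5G42740 was higher in sdg8-5 (0.33, FDR = 0.0192). The list median was 0.26 for genotype, 0.25 for sucrose and 0.14 for light, against 0.01, 0.05 and 0.01 over all named genes.

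In the triose list, the enolase gene ENOC was higher with sucrose (0.41, FDR = 0.011 from limma). ALDH11A3, the non-phosphorylating glyceraldehyde-3-phosphate dehydrogenase, was lower with sucrose (-0.36, FDR = 0.0259) and higher in light (0.53, FDR = 0.000838). AT1G56190, a phosphoglycerate kinase gene, was lower in sdg8-5 (-0.32, FDR = 0.0112). The list median was -0.06 for genotype, 0.19 for sucrose and -0.05 for light.

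In the pyruvate list, the lactate dehydrogenase gene AT4G17260 had the largest sucrose change, from 515.4 to 854.7 (0.73, FDR = 0.000184 from limma). The pyruvate decarboxylase gene PDC2 was higher with sucrose (0.66, FDR = 0.0188) and in light (0.78, FDR = 0.00345). Subunits of the mitochondrial pyruvate dehydrogenase complex were higher with sucrose, namely AT3G13930 (0.32), AT1G54220 (0.26) and MAB1 (0.23). MAB1 (-0.23) and LTA3 (-0.25), and the plastid subunit gene AT2G34590 (-0.53, FDR = 0.00177), were lower in light. For genotype, limma and the fit without moderation each called 0 of the 10, and 1 had an unadjusted p under 0.05. The list median was -0.02 for genotype, 0.24 for sucrose and -0.03 for light.

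**Figure D4:**
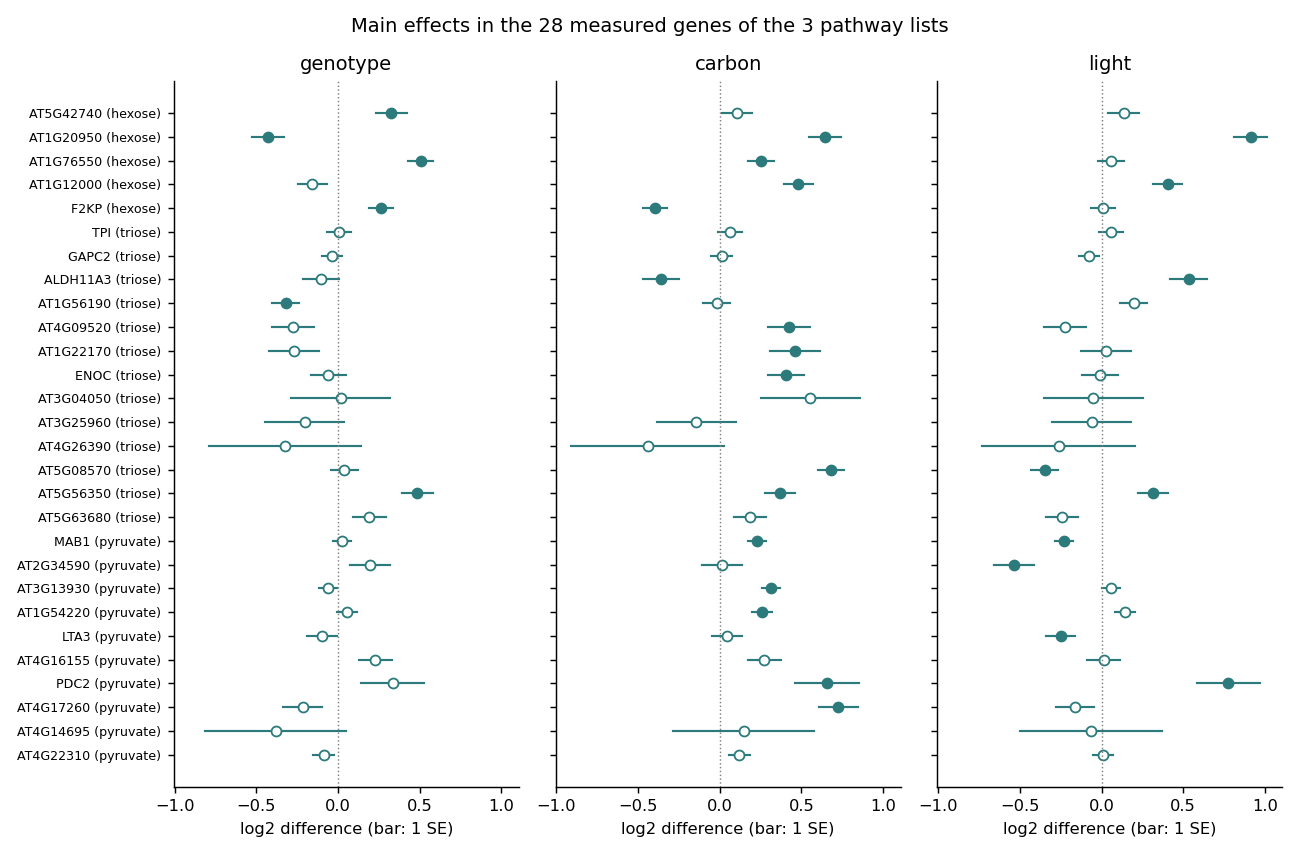
Log2 differences (horizontal axis, points) with 1 standard error (lines) for genotype, sucrose (carbon) and light in the 28 measured genes of the hexose, triose and pyruvate lists. Filled points passed an FDR of 0.05. With sucrose 13 genes are higher and 2, F2KP and ALDH11A3, are lower, beside 12.3% and 8.19% of all named genes.

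The genes most like each member in pattern were found by the Pearson correlation of log2 values over the 24 arrays, among 7653 named genes with a mean log2 value of at least that of an intensity of 100. These arrays share conditions, so the correlations are a description. PGM was most like AT1G25370 (r = 0.92), AT5G41670 (0.90), AT1G66940 (0.86), AT4G18070 (0.85) and AT4G17260 (0.84), the lactate dehydrogenase gene named above. AT3G49160 was most like AT2G03310 (0.92), AT4G32190 (0.92), AT1G76110 (0.92), PIFI (0.92) and AT3G27350 (0.91). PPDK was most like AT5G23340 (0.93), AT1G21000 (0.91), AT1G27150 (0.90), AT1G02660 (0.89) and AT5G18630 (0.88). A correlation over 0.8 was reached by 14 genes with PGM, 82 with AT3G49160 and 53 with PPDK. Spread between arrays of a condition lowers such counts, and it was largest for PGM (SD 1.16, log2, in sdg8-5 -C-L). On the 8 condition means, the 5 genes named had r = 0.92 to 0.97 with PGM. The values were 0.97 to 0.98 for AT3G49160 and 0.92 to 0.98 for PPDK. The part of this spread in the counts was not tested.

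Among the 3 genes, PGM ran against both others over the 24 arrays, with r = -0.49 for AT3G49160 and r = -0.52 for PPDK, and AT3G49160 and PPDK had r = 0.33. After the mean of each condition was removed, the values were -0.46, -0.63 and 0.51, so arrays of a condition with more PGM tended to have less of the others. PGM varied most in sdg8-5 -C-L (SD 1.16, log2). Replicate 2 there had PGM at 29.63, below the floor, and PPDK at 6276, its highest value in sdg8-5. The correlations without that array were not computed. All of them share the same arrays, and no test was made of them. Those before removal of the means also share the signs of the sucrose effects.

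**Figure D5:**
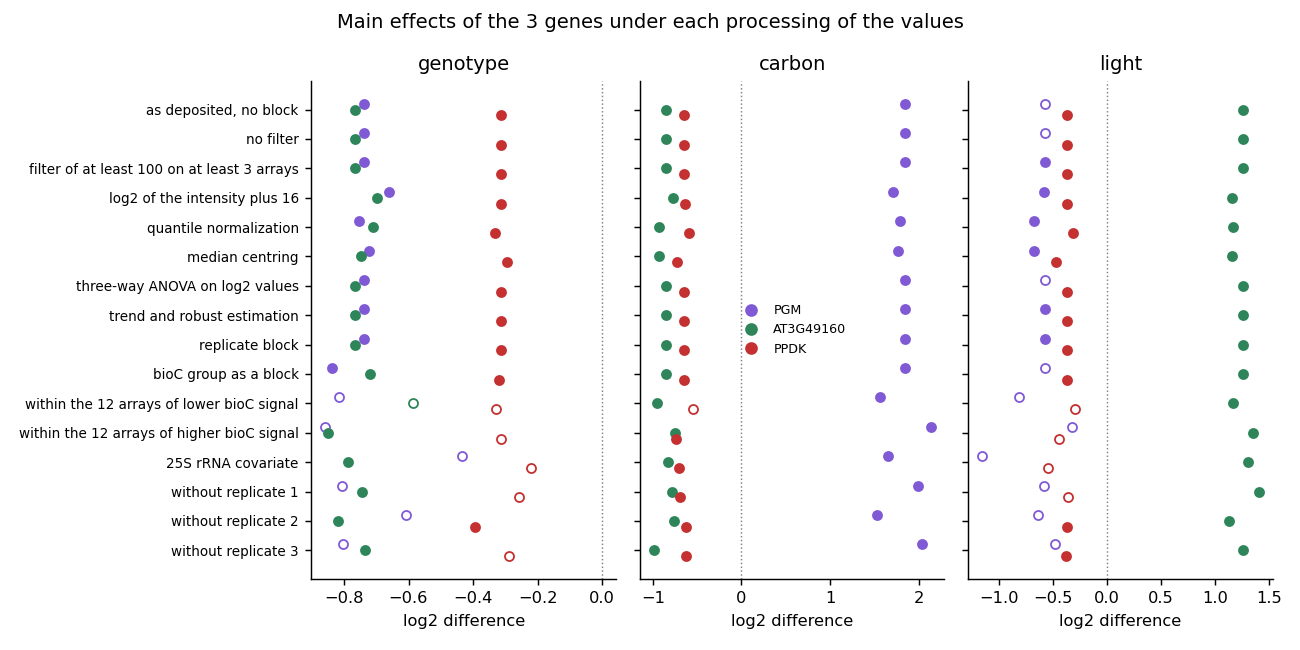
Log2 differences (horizontal axis) for genotype, sucrose (carbon) and light in PGM, AT3G49160 and PPDK under each processing of the log2 values named on the vertical axis, with filled points for an FDR under 0.05. All directions are the same under every processing shown, the sucrose effects of PGM and AT3G49160 and the light effect of AT3G49160 are filled in every row, and the genotype effects of PGM and PPDK are open in several.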

How the data were processed

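RNA of shoots from 24 plant samples was labelled with a one-cycle kit and hybridized to ATH1 arrays, which have a single colour. The authors computed the deposited signal intensities with MAS5 in R, 1 value for each of 22810 probe sets and 24 arrays, on a linear scale. The 2% trimmed mean was checked and was 500 on every array, so no further normalization was applied. MAS5 scaling sets arrays to equal total signal, so a change in total RNA would not be seen. Arrays have no read depth, and their number (3 per condition) limits the precision.

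Of the probe sets, 21552 reached an intensity of 40 on 1 array or more and 1258 did not, and the latter were left out. Log2 values were fitted with limma 3.58.1 (R 4.3.3, 16 residual and 1.81 prior degrees of freedom) by 1 coefficient per condition (8 in all), and each effect was a contrast of the coefficients. The Benjamini-Hochberg adjustment ran over the 21552 probe sets. The FDR threshold was 0.05, and 0.15 for genotype by light and genotype by carbon. A standard error and a 95% interval come from the moderated variance of limma. The fit was checked on simulated data. The probe annotation gives 1 gene for 13513 probe sets, several for 503 and none for 8794, and the brightest probe set stood for a gene, which gave 12432 named genes. Places and symbols came from RefSeq on TAIR10.1.

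Named are the 3 genes, up to 4 genes with the lowest p per pathway list and main effect among those past the FDR, all genes of the same enzyme families as the 3 genes, and the 5 genes most like each in pattern. The members, lists and tests were chosen with earlier results of these data known. The 3-fold replication is of separate samples, and whether a replicate number marks a shared growth was not given in the sources used here. The p-values measure the spread between these samples. Alternatives were other filters (none, or 100 on 3 arrays), log2 of the intensity plus 16, quantile normalization, median centring, the three-way ANOVA (least squares without moderation, as in the study) on log2 and on linear values, trend and robust estimation, a replicate block, the 2 bioC groups as a block and alone, the 25S rRNA signal as a covariate, and leaving out replicates or arrays. Within a bioC group the fit was additive in genotype, sucrose and light. Figures were drawn with matplotlib 3.10.9 in Python 3.11.15.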

Additional observations from a re-analysis of the deposited data

How the results depend on the processing

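For the 3 main effects and 4 interactions of the 3 genes, 769 of 816 alternative values kept their direction and their side of the threshold. The cause of the other changes was not tested. The genotype effect of PGM no longer passed with the three-way ANOVA on linear values (-134.6 intensity units, FDR = 0.0596 from the ANOVA), with the 25S rRNA covariate (-0.43), within the arrays of higher (-0.86) or lower bioC signal (-0.82), or without any whole replicate set (-0.81 to -0.61), and ranged from -0.85 to -0.57 without single arrays. For PPDK the genotype effect was lost with the 25S rRNA covariate (-0.22), within either bioC group (-0.31 and -0.33) and without replicate 1 (-0.26) or replicate 3 (-0.29), with a range of -0.40 to -0.26 over replicate sets, and for AT3G49160 only within the arrays of lower bioC signal (-0.59). The light effect of PPDK was lost with the 25S rRNA covariate (-0.55), within either bioC group (-0.45 and -0.29) and without replicate 1 (-0.36, FDR = 0.0576), with a range of -0.41 to -0.33 over all sets and arrays left out, and its carbon effect only within the arrays of lower bioC signal (-0.55).

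The light effect of PGM passed with the filter of 100 on 3 arrays (-0.57), log2 of the intensity plus 16 (-0.58), median centring (-0.67), quantile normalization (-0.68), the replicate block (-0.57, FDR = 0.0458), trend and robust estimation (-0.57), linear values (-246.1) and without WT +C-L replicate 1 (-0.63), WT -C-L replicate 1 (-0.66), sdg8-5 +C+L replicate 2 (-0.65), sdg8-5 -C+L replicate 3 (-0.63) or sdg8-5 -C-L replicate 2 (-0.73), within a range of -0.73 to -0.46. The carbon by light effect passed on linear values for PGM (-454.3) and PPDK (2111) and with trend and robust estimation for PPDK (0.71).

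Reversed values were all of effects that passed under no setting. On linear values these were genotype by carbon by light of PGM (156.9), genotype by carbon of AT3G49160 (62.99), PGM (-51.37) and PPDK (118.3), and genotype by light of AT3G49160 (-48.3). When arrays were left out, genotype by carbon reached 0.028 for AT3G49160 (without sdg8-5 -C-L replicate 1, from -0.26 over replicate sets) with 0.01 without WT -C-L replicate 2 and 0.02 without replicate 1. For PPDK it reached 0.042 without replicate 1 and 0.041 without replicate 2 (range -0.30 to 0.042), 0.0031 without WT -C-L replicate 2 and 0.0093 without sdg8-5 -C-L replicate 2, and genotype by light of PPDK was -0.065 without replicate 3 (range -0.065 to 0.50). The genotype difference of PGM under +C+L became 0.0078 with the 25S rRNA covariate and 0.094 without sdg8-5 +C+L replicate 1 (range -0.50 to 0.094), and that of PPDK 0.0071 without replicate 2.

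Median centring shifted the median light effect of all named genes by -0.10. It changed the split of genes called for light from 2156 higher and 2033 lower to 1630 and 2752, and for carbon from 1533 and 1018 to 1030 and 1407. The 25S rRNA covariate left 748 genes called for genotype, 1360 for carbon and 845 for light, against 2308, 2551 and 4189, and the bioC groups alone 616 and 519, 950 and 712, and 2531 and 2752 (higher and lower signal), with fewer arrays. The 25S rRNA signal itself differed with light, genotype and sucrose, so that fit cannot separate it well from these factors. The standard error of the light effect rose from 0.23 to 0.59 for PGM, 0.13 to 0.35 for AT3G49160 and 0.09 to 0.24 for PPDK. Whole replicate sets left out gave 832 to 1656 for genotype, 1065 to 1667 for carbon and 2863 to 3279 for light. Between single conditions the counts also fell. For genotype they were 79 to 217 (-C-L, 519 with all arrays) and 44 to 260 (+C-L, 558). For carbon in darkness they were 13 to 32 in WT (510) and 240 to 1305 in sdg8-5 (1571). For light they were 518 to 802 in WT with sucrose (1561). Without sucrose they were 1016 to 1297 in WT (2287) and 760 to 1475 in sdg8-5 (2147). Calls were thus lost there over all named genes, and not only in the 3 genes. With the replicate number as a block, 2449, 2678 and 4318 were called, and among the calls of main effects and interactions in the 3 genes only the light effect of PGM changed. Of 84 same-numbered pairs, 6 had deviations correlated over 0.1 (median 0.03), and 16 of 24 arrays were closest to their own number, a hint from the data only. Intensities near 40 limit PGM in sdg8-5 without sucrose and the dimmest pyruvate kinase genes.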
